A study of Mus musculus with 6 samples.

Results

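The genes described here encode parts of the spliceosome and proteins that steer its choice of splice sites. Members were the array probes whose gene symbol begins with Snrp, Sf3a, Sf3b or Prpf (core snRNP parts) or with Srsf, Sfrs, Hnrnp, Hnrp, Mbnl, Rbfox, Celf or Esrp (splicing regulators), leaving out Snrpn. This gave 184 probes of 34885 with 1 gene symbol, 64 for core parts and 120 for regulators, and they belong to 74 of 19057 named genes, 30 core and 44 regulator. The rule works on names, and it was set with earlier results of these data known.

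RNA came from mouse embryonic stem (ES) cells, kept in serum with LIF on a layer of fibroblast feeder cells whose division was blocked by mitomycin C. In the control group the cells received a control transfection, and in the shChd4 group they received a pHYPER plasmid for a short hairpin RNA against Chd4, the ATPase of the NuRD chromatin-remodelling complex. Both groups were electroporated and then selected with puromycin starting 24 h after transfection and lasting 48 h. Each group had 3 Illumina arrays, and the 2 groups lay on different BeadChips, so an effect of the chip cannot be told apart from one of the hairpin. Separate cultures are not mentioned for the arrays of a group, so the p-values measure the spread between arrays only, which may be technical. Whether the feeders survived the selection is not stated.

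Introns are removed by small nuclear ribonucleoproteins (snRNPs), each built on a small RNA. Sm proteins form a ring around the RNA of the U1, U2, U4 and U5 particles, SF3A and SF3B belong to the U2 particle that recognises the branch point, and several Prpf proteins sit in the U4/U6.U5 tri-snRNP that joins before catalysis. Regulators bind the transcript itself: SR proteins mostly promote the use of nearby exons, hnRNP proteins often oppose it, and the Mbnl, Rbfox, Celf and Esrp families set splicing patterns that differ between tissues. Mbnl proteins are known to repress splicing patterns typical of pluripotent cells, and Esrp proteins are known for the epithelial splicing programme.

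Promoters of 6 called genes are shown here so that their sequences can be read beside the values given below. They come from RefSeq, build GRCm38.p6, are 300 bases long from 250 before to 50 after an annotated start, and run 5′ to 3′ on the strand of the gene. Capitals mark the CCAAT box (CCAAT), the TATA box (TATAAA), the GC box (GGGCGG), the E-box (CACGTG) and an ETS-type motif (CCGGAAG) on either strand, and where 2 such motifs touch or overlap the capitals run together. Mbnl2 and Mbnl1 rose most, and Mbnl1 has 2 annotated starts. Prpf40b, with 2 annotated starts, fell most among core parts, and Snrpg and Sf3b3 are shown as core parts that fell and whose windows hold CCGGAAG, although other core parts changed more. Of the 8 core genes that fell and have a promoter in the table, 3 hold this motif. Srsf5 is the regulator with the lowest log2 change.
Mbnl2 (chr14:120275419-120275718, plus strand): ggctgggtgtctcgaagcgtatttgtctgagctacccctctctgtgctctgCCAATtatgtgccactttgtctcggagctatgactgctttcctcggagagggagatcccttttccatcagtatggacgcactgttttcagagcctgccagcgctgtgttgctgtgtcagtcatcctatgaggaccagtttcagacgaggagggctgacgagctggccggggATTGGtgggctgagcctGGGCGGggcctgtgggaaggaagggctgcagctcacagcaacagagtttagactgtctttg
Mbnl1 first start (chr3:60472580-60472879, plus strand): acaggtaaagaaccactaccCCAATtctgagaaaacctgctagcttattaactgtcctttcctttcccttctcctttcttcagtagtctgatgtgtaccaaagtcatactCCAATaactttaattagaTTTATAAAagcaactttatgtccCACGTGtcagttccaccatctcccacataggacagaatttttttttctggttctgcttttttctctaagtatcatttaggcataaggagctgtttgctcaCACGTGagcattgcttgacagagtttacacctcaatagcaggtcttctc
Mbnl1 second start (chr3:60500929-60501228, plus strand): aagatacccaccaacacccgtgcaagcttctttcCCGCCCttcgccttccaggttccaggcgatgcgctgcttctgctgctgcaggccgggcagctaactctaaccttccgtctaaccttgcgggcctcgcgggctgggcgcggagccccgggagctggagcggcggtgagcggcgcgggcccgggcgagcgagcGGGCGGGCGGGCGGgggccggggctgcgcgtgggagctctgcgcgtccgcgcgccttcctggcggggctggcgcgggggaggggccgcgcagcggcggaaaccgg
Prpf40b first start (chr15:99294991-99295290, plus strand): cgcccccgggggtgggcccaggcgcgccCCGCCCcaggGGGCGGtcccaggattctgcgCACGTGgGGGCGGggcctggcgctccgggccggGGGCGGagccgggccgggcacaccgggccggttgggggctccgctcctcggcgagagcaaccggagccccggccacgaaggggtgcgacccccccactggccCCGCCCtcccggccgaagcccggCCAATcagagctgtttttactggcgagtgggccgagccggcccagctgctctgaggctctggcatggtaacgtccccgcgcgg
Prpf40b second start (chr15:99303034-99303333, plus strand): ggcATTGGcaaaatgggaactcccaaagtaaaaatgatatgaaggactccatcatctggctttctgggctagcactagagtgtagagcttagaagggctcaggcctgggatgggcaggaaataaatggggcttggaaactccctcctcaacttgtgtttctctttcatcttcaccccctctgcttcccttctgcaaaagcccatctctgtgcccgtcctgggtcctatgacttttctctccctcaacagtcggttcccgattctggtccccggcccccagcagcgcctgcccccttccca
Snrpg (chr6:86371290-86371589, plus strand): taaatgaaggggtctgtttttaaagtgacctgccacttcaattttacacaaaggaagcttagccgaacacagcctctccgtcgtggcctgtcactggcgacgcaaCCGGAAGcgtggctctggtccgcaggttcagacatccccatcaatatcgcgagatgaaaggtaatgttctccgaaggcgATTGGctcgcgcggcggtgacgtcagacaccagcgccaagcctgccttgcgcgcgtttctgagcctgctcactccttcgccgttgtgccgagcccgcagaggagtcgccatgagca
Sf3b3 (chr8:110846754-110847053, minus strand): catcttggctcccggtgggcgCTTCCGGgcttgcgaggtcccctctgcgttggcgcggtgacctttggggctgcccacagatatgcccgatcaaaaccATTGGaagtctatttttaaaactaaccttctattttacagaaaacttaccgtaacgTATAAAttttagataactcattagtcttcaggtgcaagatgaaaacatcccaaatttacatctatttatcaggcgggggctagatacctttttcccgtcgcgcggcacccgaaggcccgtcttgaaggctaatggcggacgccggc
Srsf5 (chr12:80945249-80945548, plus strand): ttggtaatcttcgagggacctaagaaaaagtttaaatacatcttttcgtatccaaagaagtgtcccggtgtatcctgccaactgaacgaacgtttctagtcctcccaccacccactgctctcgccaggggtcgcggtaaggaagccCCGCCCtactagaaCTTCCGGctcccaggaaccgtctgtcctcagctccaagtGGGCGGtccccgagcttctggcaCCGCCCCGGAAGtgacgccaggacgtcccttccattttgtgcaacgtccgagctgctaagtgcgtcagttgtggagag
The second Mbnl1 window has 41 CpG dinucleotides and 75% G and C, and the first has 2 and 39.3%. The Mbnl2 window has 10 and 56.3%, and the first Prpf40b window 35 and 78.3%.

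At a detection p-value under 0.05, between 34.9% and 35.6% of the 45281 probes were detected on a control array. On an shChd4 array the share was between 37.7% and 38.7%, and the part of this difference in the results below was not tested. The targeted transcript, Chd4, had a log2 change of -2.04 (SE 0.16 from 3 arrays a group, limma adjusted p = 6.33e-06). Markers of fibroblasts, the feeder cell type, were higher on the shChd4 arrays: of 24 listed, 18 were tested, 16 rose and 0 fell. Their mean log2 intensity lay between 6.10 and 6.63 on the control arrays and between 8.53 and 8.84 on the shChd4 arrays. Of the fibroblast markers, Lum, Col1a1, Col6a2 and Pdgfrb had no detection in controls. They entered the test, and the means above, only through the shChd4 arrays. The calls of Lum, Col1a1 and Pdgfrb among the 16 are therefore no support for a rise of the list. Of 12 markers of pluripotent ES cells, all 12 tested, 9 fell and 0 rose, with means from 9.78 to 10.07 in controls and from 8.77 to 9.29 after shChd4. The part of these shifts in the results below was not tested, and fewer cells of a type and less RNA per cell cannot be told apart in bulk RNA.

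Most splicing genes had log2 changes below 0 after Chd4 shRNA, and a log2 change above 1 in size was seen in Mbnl2, Mbnl1 and Prpf40b only. Each gene was read by its brightest probe and compared with limma over 9808 genes. Of the 62 member genes tested, 16 fell and 3 rose at an adjusted p under 0.05. Over all genes tested 38.1% were called, 18.2% lower and 19.9% higher, so the members' total of 30.6% lay below the background, with 25.8% lower and 4.84% higher. At an unadjusted p under 0.05 the members numbered 29 (46.8%), against 47.2% of all genes. The median log2 change of the members was -0.29, against -0.05 for all genes tested. A change below 0 was seen in 49 of 62 members (79.0%) and in 53.8% of all genes. For 32 members every shChd4 array lay below every control array and for 4 members above, that is 58.1% without overlap, against 50.3% of all genes tested (25.3% below, 25% above). Rbfox1 is among these 4 but entered the test only through the shChd4 arrays, so its place there is no support for a rise. The number of falls rested on single arrays. It was 10 without control replicate 1 (16.1% of members, 14% of all genes), 7 without control replicate 2 (11.3% and 13.1%), 8 without shChd4 replicate 1 (13.1% and 14.8%) and 10 without shChd4 replicate 3 (16.4% and 15%). The members' share of falls was thus below that of all genes without control replicate 2 or shChd4 replicate 1, and above it with all 6 arrays. The 3 rises were called in all 15 alternatives run, as were 4 of the falls (Snrpa, Prpf4, Prpf40b and Hnrnpf).

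**Figure D1:**
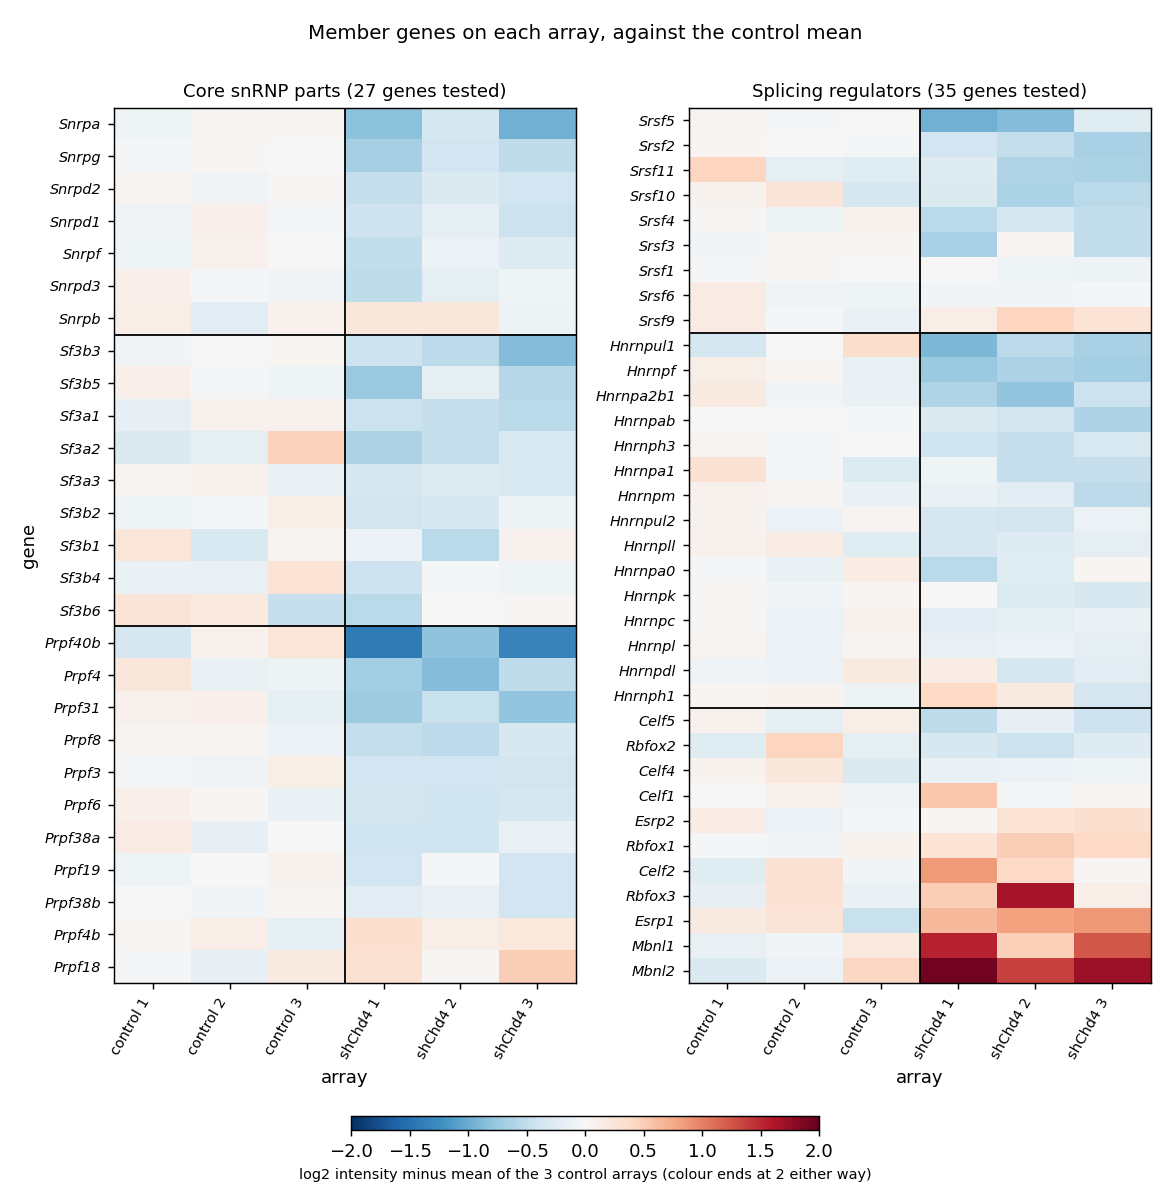
Each row is a member gene and each column an array, and colour is the log2 intensity minus the mean of the 3 control arrays, with lines between the classes (Snrp, SF3, Prpf on the left, SR, hnRNP and the Mbnl, Rbfox, Celf and Esrp genes on the right). The shChd4 columns are mostly pale blue, and the deepest red lies in Mbnl1, Mbnl2 and the second shChd4 array of Rbfox3.

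Set side by side, 9 of 27 core genes fell and 0 rose (33.3% lower), while 7 of 35 regulators fell and 3 rose (20% lower, 8.57% higher). Of all genes tested 18.2% were lower and 19.9% higher, so the regulators' share of falls lay near the background. Of the separate classes 28.6% of the Snrp, 33.3% of the SF3, 36.4% of the Prpf, 33.3% of the SR and 26.7% of the hnRNP genes fell. The median log2 change was -0.35 for core parts and -0.25 for regulators. The mean level of the core genes lay 0.43, 0.29 and 0.34 below the control mean on shChd4 replicates 1, 2 and 3, on the log2 scale, and that of the regulators 0.05, 0.09 and 0.11 below. Within the regulators the SR and hnRNP genes had medians of -0.46 and -0.27, on either side of the core value, and the Mbnl, Rbfox, Celf and Esrp genes had a median of 0.39. That median is the value of Rbfox1, which entered the test only through the shChd4 arrays, and it was 0.32 without Rbfox1 and 0.21 with Rbfox1 at its bound. These are descriptions, and the difference between the classes was not tested. Among the shChd4 arrays the core mean was highest on replicate 2, which also had the highest ES marker mean and the lowest fibroblast marker mean of its group. The controls showed the reverse. Their core means were 9.83, 9.81 and 9.84, highest on replicate 3, which had the lowest ES marker mean and the highest fibroblast marker mean of its group. The part of those markers in the core values was not tested. With median scaling in place of quantile normalisation, 15 core genes fell and 0 rose (55.6%, against 16.1% of all genes). Without control replicate 2 the core falls numbered 4 (14.8%, against 13.1%), and without shChd4 replicate 1 they numbered 5 (18.5%, against 14.8%). The regulator falls numbered 3 without control replicate 1, without control replicate 2 or without shChd4 replicate 1, and 4 without shChd4 replicate 3, and their shares of 8.57%, 8.57%, 8.82% and 11.8% were below those of all genes in these fits.

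**Figure D2:**
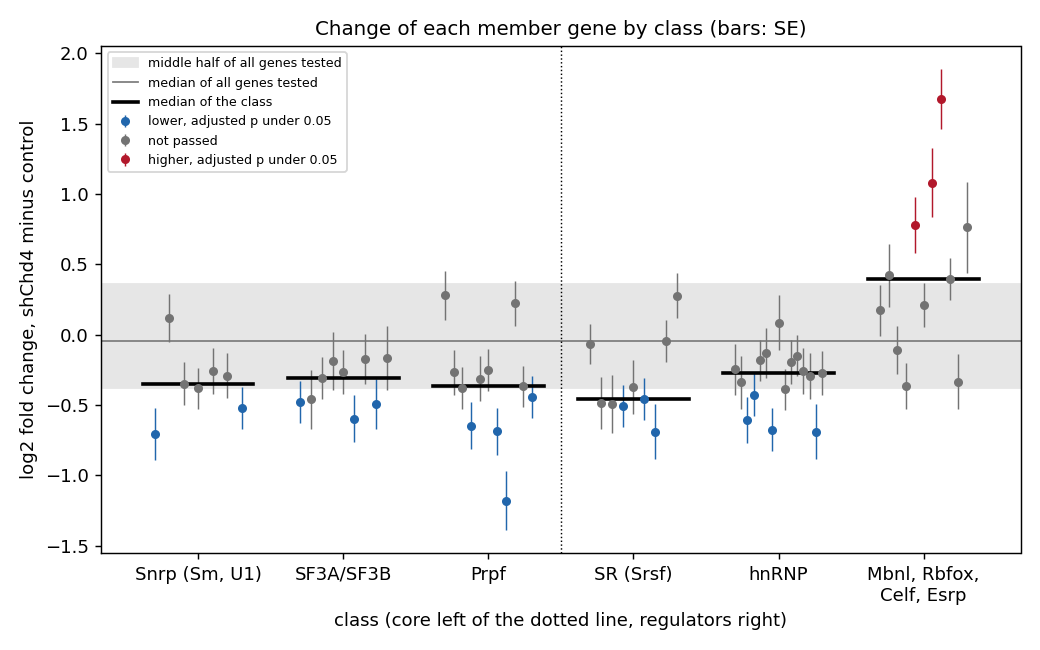
The vertical axis is the log2 fold change (shChd4 minus control) of each member gene with its SE, by class. Black lines are class medians and the grey band runs from the lower to the upper quartile of all genes tested (-0.38 to 0.36). Medians of the 5 classes of core, SR and hnRNP genes lie between -0.46 and -0.27, and the class on the far right has its median at 0.39, the value of Rbfox1, or 0.32 without that gene.

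Among the Sm and U1 proteins, 2 of 7 tested genes fell and 0 rose (28.6% lower, against 18.2% of all genes). Snrpa, which encodes the U1-A protein that binds U1 RNA, had log2 intensities of 11.10, 11.25 and 11.22 in controls and 10.37, 10.84 and 10.23 with the hairpin. The groups did not overlap, and shChd4 replicate 2 was the least reduced. The change was -0.71 (SE 0.18 from 3 arrays a group, limma adjusted p = 0.0106), and a second probe changed by -0.48 (limma adjusted p = 0.0462 over all probes). Snrpg, a small protein of the Sm ring, read 12.13, 12.16 and 12.15 in controls and 11.48, 11.76 and 11.64 with the hairpin. Its control arrays spanned 0.04, and every shChd4 array was lower. The gene fell (log2 change -0.52, SE 0.15, limma adjusted p = 0.0182), although a dimmer second probe changed by -0.01 (limma adjusted p = 0.972 over all probes). For the other Sm genes Snrpb, Snrpd1, Snrpd2, Snrpd3 and Snrpf the log2 changes ranged from -0.38 (Snrpd2) to 0.12 (Snrpb), and none passed. Within the ring, Snrpb had a 95% interval from -0.26 to 0.49 and Snrpd2 one from -0.71 to -0.06, and the difference between them was not tested. Dimmer tested probes of Snrpb changed by -0.02 and -0.57 (limma adjusted p = 0.944 and 0.0542 over all probes), so its sign depended on the probe. The Snrpg call did not hold without control replicate 2, without shChd4 replicate 1 or with the mean of the detected probes (log2 change -0.51 to -0.27, limma adjusted p from 0.0591 to 0.198).

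SF3A and SF3B, the complexes that hold the U2 particle at the branch point, had 3 falls and 0 rises among 9 tested genes, and all 9 changes were below 0. Of all genes 18.2% fell and 53.8% had a change below 0, and 9 genes are few to set against these shares. Sf3b3, the scaffold partner of Sf3b1 in SF3B, read 10.86, 10.90 and 10.95 in controls and 10.49, 10.39 and 10.04 with the hairpin. No shChd4 array reached the lowest control array, and the gene fell (log2 change -0.60, SE 0.16, limma adjusted p = 0.0145). Sf3a1, the largest SF3A subunit, read 10.59, 10.84 and 10.84 in controls and 10.32, 10.30 and 10.21 with the hairpin. The shChd4 arrays lay close together and below the controls, and Sf3a1 fell (log2 change -0.48, SE 0.15, limma adjusted p = 0.0284). Sf3b5, a small SF3B subunit, read 12.20, 12.08 and 12.02 in controls and 11.36, 11.93 and 11.53 with the hairpin. All shChd4 values were below the controls, with replicate 2 nearest to them, and the gene fell (log2 change -0.50, SE 0.18, limma adjusted p = 0.0464). The other 6 changed by -0.46 (Sf3a2) to -0.17 (Sf3b6) without passing. Sf3b1, which contacts the branch point and is a frequent target of mutation in human blood cancers, has 1 probe on this array, detected on 2 control and 2 shChd4 arrays, so its change of -0.19 (95% interval -0.64 to 0.26) rests on a signal near background. The Sf3b3 call did not hold without shChd4 replicate 3 (log2 change -0.47, limma adjusted p = 0.0558). The Sf3a1 call did not hold without control replicate 2 or 3, without shChd4 replicate 1 or 3 or with the mean of the detected probes (log2 change -0.50 to -0.32, limma adjusted p from 0.0539 to 0.110). The Sf3b5 call did not hold without control replicate 1, 2 or 3, without shChd4 replicate 1 or 3, with no detection filter or with the mean of the detected probes (log2 change -0.54 to -0.36, limma adjusted p from 0.0675 to 0.159).

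The 5 tri-snRNP genes Prpf3, Prpf4, Prpf6, Prpf8 and Prpf31 had 3 falls and 0 rises, and in all 5 the groups did not overlap, with shChd4 below. Of all genes 18.2% fell and 25.3% were below without overlap, and 5 genes are few to set against these shares. Prpf4, a U4/U6 protein, read 9.09, 8.74 and 8.77 in controls and 8.19, 7.998 and 8.35 with the hairpin. All 3 shChd4 arrays were below the lowest control, and Prpf4 fell (log2 change -0.69, SE 0.17, limma adjusted p = 0.00819), with a change of -0.15 on another tested probe and -0.42 for the mean of both. Prpf8, the large U5 protein at the catalytic centre, read 9.90, 9.90 and 9.72 in controls and 9.36, 9.31 and 9.52 with the hairpin. The gap between the groups was 0.20 at its narrowest, and Prpf8 fell (log2 change -0.45, SE 0.15, limma adjusted p = 0.0377). Prpf31, which holds the U4/U6 particle to U5, read 5.56, 5.56 and 5.27 in controls and 4.75, 5.02 and 4.68 with the hairpin, near background, with detection on 3 control arrays and 1 shChd4 array. It fell (log2 change -0.65, SE 0.17, limma adjusted p = 0.0101). Prpf3 and Prpf6 changed by -0.38 (limma adjusted p = 0.0622) and -0.37 (limma adjusted p = 0.0705) and did not pass. The Prpf8 call did not hold without control replicate 1 or 2, without shChd4 replicate 1 or 2 or with the mean of the detected probes (log2 change -0.43 to -0.25, limma adjusted p from 0.0867 to 0.221). The Prpf31 call did not hold without control replicate 2, without background correction, with the authors' processed values or with the mean of the detected probes (log2 change -0.35 to 0.10, limma adjusted p from 0.0842 to 0.762). Without control replicate 2 a different Prpf31 probe was the brightest of the gene.

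Prpf40b had the lowest log2 change of all 62 members. Its protein is a mammalian relative of yeast Prp40, a U1-associated protein that helps to bridge the ends of an intron. The tested probe read 7.73, 8.16 and 8.32 in controls and 6.66, 7.27 and 6.74 with the hairpin. The highest shChd4 array stayed below the lowest control array, and shChd4 replicate 2 was again the least reduced. The change was -1.18 (SE 0.21 from 3 arrays a group, limma adjusted p = 0.00136), or 44.1% of the intensity in controls. A second probe changed by -0.85 (limma adjusted p = 0.0129 over all probes). It was near background (mean 5.61 in controls and 4.76 with the hairpin), with detection on 3 control arrays and 1 shChd4 array. The control arrays, where it was higher, were thus enough to let it into the test. Another probe, detected on 2 control arrays and on 0 shChd4 arrays, differed by -0.54. Without background correction, or with the authors' processed values, the Prpf40b change was -0.77 and still passed. The remaining Prpf genes did not pass: Prpf18, a second-step factor, and Prpf4b, a kinase, had changes of 0.28 and 0.22, while Prpf19, the ubiquitin ligase of the Prp19 complex, and Prpf38a and Prpf38b had changes of -0.27, -0.31 and -0.25.

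All 3 rises lay among the 11 tested genes of the Mbnl, Rbfox, Celf and Esrp families, of which 0 fell. That is 27.3% higher, against 19.9% of all genes, and with 11 genes nothing particular to these families is read from it. Mbnl2 had the highest change of all members, reading 7.56, 7.73 and 8.26 in controls and 9.77, 9.21 and 9.58 with the hairpin. Every shChd4 array was above every control array, and within the groups control replicate 3 and shChd4 replicate 1 were highest. The change was 1.67 (SE 0.21 from 3 arrays a group, limma adjusted p = 0.000157), which is 3.19 times the control intensity. A second Mbnl2 probe read 5.61, 5.71 and 5.54 in controls and 7.13, 6.66 and 6.81 with the hairpin and rose by 1.24 (limma adjusted p = 0.000198 over all probes).

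Its paralog Mbnl1 read 6.49, 6.59 and 6.83 in controls and 8.17, 7.11 and 7.87 with the hairpin. The groups did not overlap, but shChd4 replicate 2 lay only 0.28 above the highest control. Mbnl1 rose by 1.08 (SE 0.25 from 3 arrays a group, limma adjusted p = 0.00549). Of its 2 other probes, 1 was tested and changed by 0.13, with detection on 1 control and 2 shChd4 arrays, and the other was detected on no array. Without background correction the Mbnl1 change was 0.67, and with the mean of its detected probes it was 0.61. Mbnl3 has 2 probes, and both were below detection on all 6 arrays. The mean of the fibroblast markers was lowest on replicate 2 among the shChd4 arrays and highest on replicate 3 among the controls, the same arrays on which Mbnl1 and Mbnl2 were lowest and highest. Its part in the Mbnl values was not tested.

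Esrp1, the epithelial splicing regulator, read 9.21, 9.29 and 8.58 in controls and 9.68, 9.83 and 9.90 with the hairpin. Its shChd4 arrays were close together and above all controls, while control replicate 3 was low. It rose by 0.78 (SE 0.20 from 3 arrays a group, limma adjusted p = 0.0106), or 1.71 times the control intensity. Esrp1 was highest on shChd4 replicate 3 and lowest on control replicate 3, the arrays with the highest fibroblast mean of their groups, and the part of those markers was not tested. Esrp2, its paralog, read 5.26, 5.001 and 5.08 in controls and 5.16, 5.38 and 5.44 with the hairpin, near background and with overlap. It changed by 0.21 (95% interval -0.14 to 0.56) and did not pass.

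Rbfox and Celf genes did not pass. Rbfox3, best known from neurons as the NeuN antigen, read 6.04, 6.49 and 6.06 in controls and 6.70, 7.85 and 6.33 with the hairpin. The second shChd4 array stood apart from the other two, and a second probe showed the same array high, at 7.71 against 6.38 and 5.98. The Rbfox3 change was 0.76 (SE 0.32 from 3 arrays a group, limma adjusted p = 0.0854), 0.32 without that array, and 0.42 without background correction. It passed under median scaling with all arrays (log2 change 0.90, limma adjusted p = 0.0213) and without shChd4 replicate 3 (log2 change 1.08, limma adjusted p = 0.0253). Rbfox1 read 4.60, 4.57 and 4.69 in controls and 4.90, 5.12 and 5.02 with the hairpin. It was detected on 0 control and 3 shChd4 arrays, so the detection filter let it in through the group where it was higher, and its change of 0.39 did not pass (limma adjusted p = 0.0570). It passed with no detection filter (limma adjusted p = 0.0270) and with the mean of the detected probes (limma adjusted p = 0.0452), and its change was 0.12 without background correction. Rbfox2, the member of this family that ES cells are known to use, read 7.05, 7.72 and 7.09 in controls and 6.97, 6.86 and 7.03 with the hairpin. Its shChd4 arrays lay just below the controls and its change of -0.33 did not pass, whereas a second probe fell by 0.54 (limma adjusted p = 0.0433 over all probes).

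The Celf proteins bind GU-rich sequences and oppose Mbnl proteins at many exons in heart and muscle. Celf1 read 9.53, 9.63 and 9.47 in controls and 10.08, 9.50 and 9.58 with the hairpin, with shChd4 replicate 1 alone above the rest, and without that array its log2 change was -0.0061. Celf2 read 5.71, 6.26 and 5.89 in controls and 6.80, 6.35 and 5.98 with the hairpin, and its groups overlapped. Celf4 read 6.43, 6.58 and 6.06 in controls and 6.23, 6.24 and 6.27 with the hairpin and Celf5 read 5.69, 5.41 and 5.72 in controls and 5.09, 5.44 and 5.20 with the hairpin, both with overlap. For Celf1, Celf2, Celf4 and Celf5 the log2 changes were 0.17, 0.42, -0.11 and -0.36, with limma adjusted p from 0.106 to 0.655. The sign of Celf4 was not settled, with 0.049 under median scaling.

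**Figure D3:**
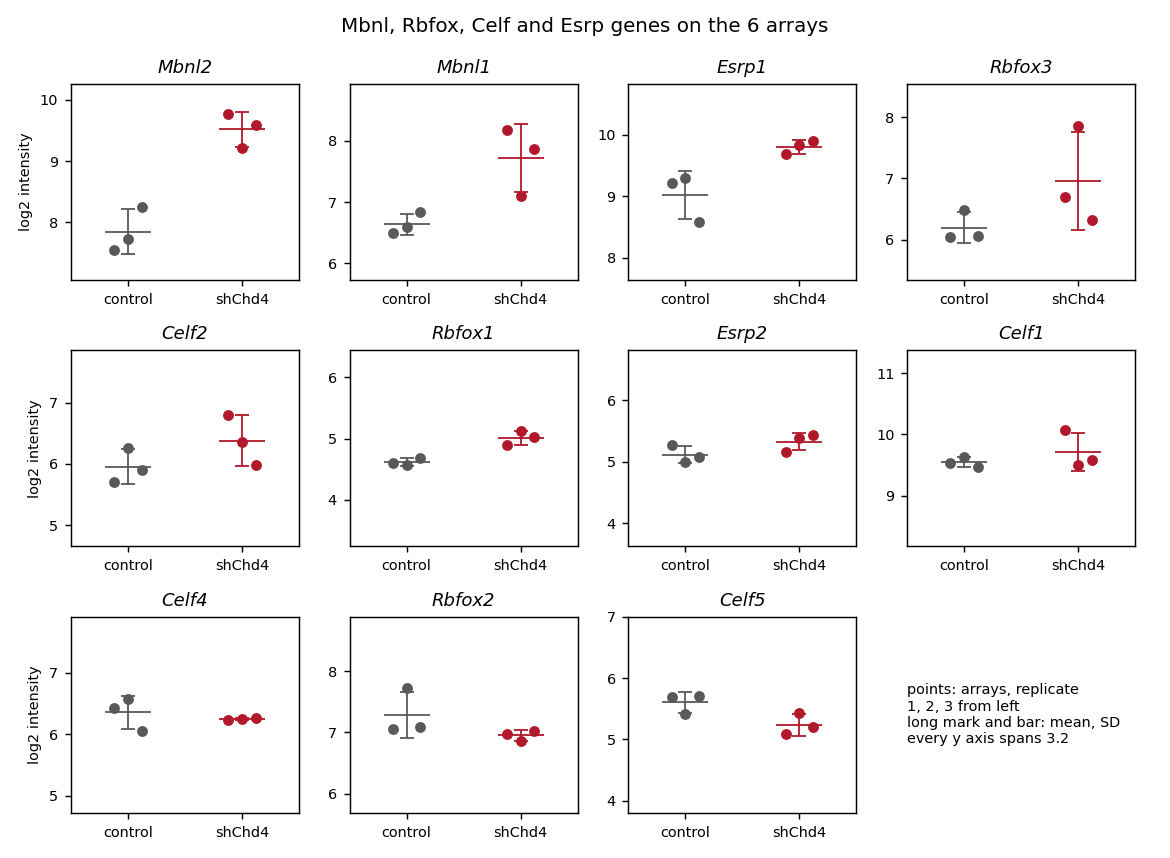
Log2 intensity of the 11 tested Mbnl, Rbfox, Celf and Esrp genes, 1 point per array (control grey, shChd4 red, replicates 1 to 3 from left), with mean and SD; each vertical axis spans 3.2. Groups are apart for Mbnl2, Mbnl1, Esrp1 and Rbfox1 with shChd4 above, and for Rbfox2 with shChd4 below, and Rbfox3 has 1 high shChd4 array at 7.85. Rbfox1 was detected on no control array and entered the test only through the shChd4 arrays.

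SR proteins, named for their arginine and serine repeats, had 3 falls and 0 rises among 9 tested genes (33.3% lower, against 18.2% of all genes). Srsf5 read 12.03, 11.94 and 11.97 in controls and 11.02, 11.11 and 11.73 with the hairpin. All shChd4 arrays were lower than the controls, and replicate 3 lay much closer to them than the other two. Srsf5 fell (log2 change -0.69, SE 0.20, limma adjusted p = 0.0167). Srsf2, which has a role in exon recognition and is often mutated in human blood cancers, read 13.19, 13.17 and 13.11 in controls and 12.77, 12.68 and 12.51 with the hairpin. The groups were apart on each of its 3 tested probes, and Srsf2 fell (log2 change -0.51, SE 0.15, limma adjusted p = 0.0204), while its dimmest tested probe fell by 0.93 (limma adjusted p = 0.000821 over all probes). Srsf4 read 9.80, 9.68 and 9.86 in controls and 9.24, 9.42 and 9.30 with the hairpin and fell (log2 change -0.46, SE 0.15, limma adjusted p = 0.0306), with no overlap between the groups. Srsf1, the founding SR protein, read 12.26, 12.31 and 12.28 in controls and 12.27, 12.20 and 12.18 with the hairpin. Its change of -0.07 had a 95% interval from -0.38 to 0.25, and Srsf6 changed by -0.05. Srsf3, Srsf10 and Srsf11 changed by -0.37, -0.49 and -0.50 and Srsf9 by 0.28, and none passed. The Srsf5 call did not hold without shChd4 replicate 1 or 2 (log2 change -0.60 to -0.56, limma adjusted p from 0.0582 to 0.0728). The Srsf2 call did not hold without control replicate 1 or 2 or without shChd4 replicate 3 (log2 change -0.50 to -0.44, limma adjusted p from 0.0604 to 0.0691). The Srsf4 call did not hold without control replicate 1, 2 or 3 or without shChd4 replicate 1 or 3 (log2 change -0.51 to -0.42, limma adjusted p from 0.0543 to 0.0855).

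Of 15 tested hnRNP genes, 4 fell and 0 rose (26.7% lower, against 18.2% of all genes). A change below 0 was seen in 14 of them (93.3%), against 53.8% of all genes. Hnrnpf, which binds G-rich runs near exons, read 10.49, 10.40 and 10.21 in controls and 9.63, 9.76 and 9.68 with the hairpin. The groups lay at least 0.46 apart, and the change was -0.68 (SE 0.15 from 3 arrays a group, limma adjusted p = 0.00507). Hnrnpa2b1, an abundant repressor of exons, read 11.73, 11.50 and 11.42 in controls and 10.95, 10.76 and 11.13 with the hairpin and fell (log2 change -0.61, SE 0.17, limma adjusted p = 0.0139), with no overlap. Hnrnpab read 13.79, 13.80 and 13.76 in controls and 13.49, 13.41 and 13.17 with the hairpin and fell (log2 change -0.43, SE 0.15, limma adjusted p = 0.0480), with a change of -0.65 under median scaling. Hnrnpul1, a relative of Hnrnpu, read 5.43, 5.80 and 6.13 in controls and 4.89, 5.26 and 5.14 with the hairpin, at the low end of detection, and fell (log2 change -0.69, SE 0.20, limma adjusted p = 0.0181). The abundant Hnrnpc, which coats new transcripts, changed by -0.18, Hnrnpk by -0.20, Hnrnpm by -0.30 and Hnrnpl by -0.15, and none of these passed. Hnrnpa1, a repressor of many exons, changed by -0.34 (limma adjusted p = 0.178). The single hnRNP value above 0 was that of Hnrnph1, at 0.08. The Hnrnpa2b1 call did not hold without control replicate 1 (log2 change -0.52, limma adjusted p = 0.0563). The Hnrnpab call did not hold without control replicate 1, 2 or 3 or without shChd4 replicate 1, 2 or 3 (log2 change -0.49 to -0.33, limma adjusted p from 0.0520 to 0.151). The Hnrnpul1 call did not hold without control replicate 2 or 3, without shChd4 replicate 1, without background correction or with the authors' processed values (log2 change -0.68 to -0.23, limma adjusted p from 0.0509 to 0.0803).

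Several members are read by probes assigned to different transcript records, so that 1 gene can give more than 1 answer. Of the 184 probes, 123 were detected on at least 3 arrays and tested, and of these 28 fell and 5 rose, or 22.8% and 4.07%, against 18.5% and 17.5% of all 14610 probes tested (26.8% called in all, against 36%). The probes that fell numbered 16 and 17 without control replicates 1 and 2 and 18 and 14 without shChd4 replicates 1 and 3. In these fits fewer of all genes fell as well, 14%, 13.1%, 14.8% and 15%, against 18.2% with all arrays. The share of all probes in them was not counted. The 5 higher probes were 2 of Mbnl2 and 1 each of Mbnl1, Esrp1 and Srsf11. Of 41 genes with at least 2 tested probes, 31 had all probes changing in 1 direction and 10 had both signs. A test of each probe against the other probes of its gene (diffSplice of limma, adjusted over 8205 probes) called 2 of 102 member probes. That is 1.96%, against 4.58% of all probes tested.

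Both called probes carry a different transcript record from their partners. For Srsf11, an SR-like protein, 2 probes of 1 RefSeq record changed by -0.50 and -0.44, and another, assigned to a cDNA record, read 7.01, 7.13 and 6.66 in controls and 7.91, 7.43 and 7.28 with the hairpin. That probe was higher on every shChd4 array than on any control array and rose by 0.60 (SE 0.20 from 3 arrays a group, limma adjusted p = 0.0349 over all probes). Its difference from the other Srsf11 probes was 1.07 (diffSplice in limma, adjusted p = 0.0227). For Prpf31, a probe of a cDNA record changed by 0.21 against -0.65 and -0.60 on the others (difference 0.83, limma adjusted p = 0.0314). All 3 Prpf31 probes were near background, where changes are compressed, and the odd probe was detected on 1 control and 2 shChd4 arrays. The 2 calls were lost, leaving 0, without control replicate 1, without shChd4 replicate 1 or without shChd4 replicate 3, and 1 remained without control replicate 2 or control replicate 3. Neither call shows which exons changed, since probe positions were not used here.

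Srsf10, an SR protein known as a splicing repressor when it is dephosphorylated, showed a split by record that did not pass this test. Its 2 probes of 1 RefSeq record changed by -0.49 and -0.52, and its 2 probes of another record by 0.09 and 0.07. The dimmer probe of the first pair read 6.69, 6.68 and 6.80 in controls and 6.39, 6.41 and 5.82 with the hairpin, without overlap, and the brighter probe of the second pair read 7.14, 7.20 and 7.22 in controls and 7.58, 7.17 and 7.06 with the hairpin, with overlap. The adjusted p of the 4 probes in the diffSplice test of limma ran from 0.390 to 0.471. This gene was singled out after its values were seen.

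**Figure D4:**
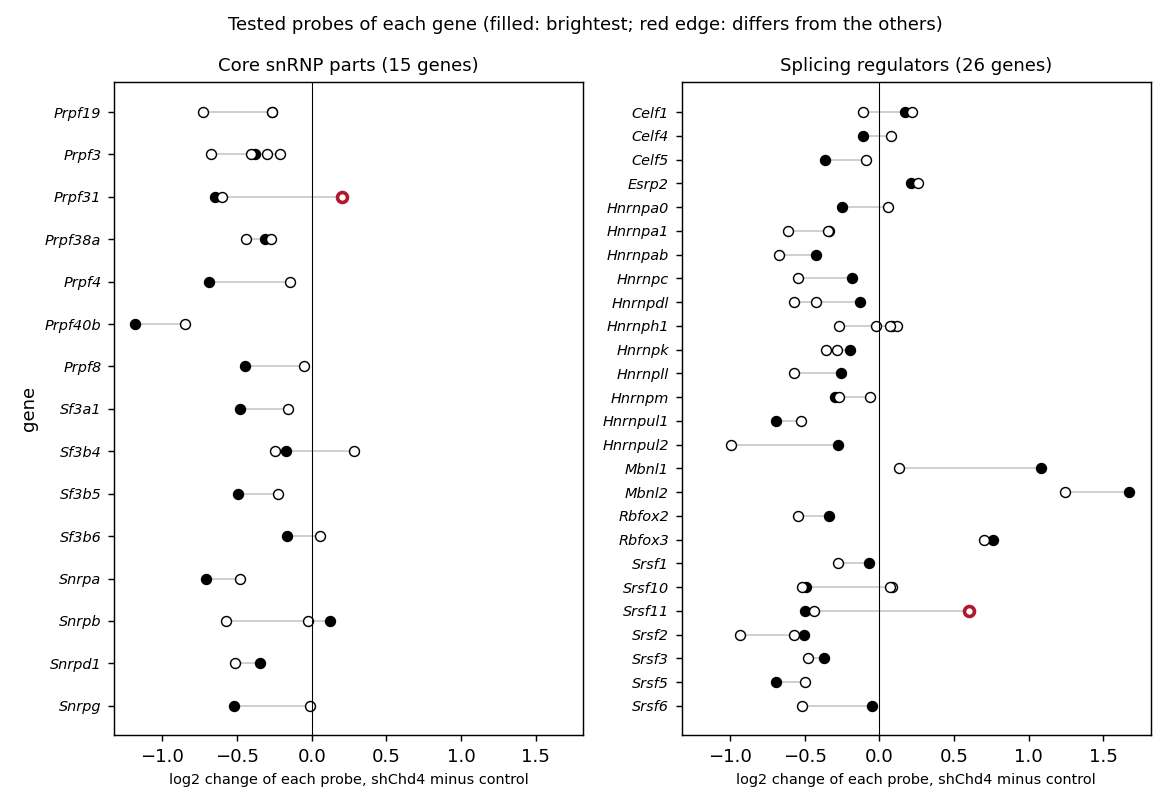
Each circle is a tested probe placed by its log2 change (shChd4 minus control), with the 41 genes that have at least 2 such probes in rows. Filled circles are the brightest probe and red edges the 2 probes that differed from their partners. The red circles of Prpf31 and Srsf11 lie right of 0 at 0.21 and 0.60 while their partners lie left of it.

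The 12 member genes that were not tested are 3 core genes (Prpf39, Snrpb2 and Snrpe) and 9 regulators (Celf3, Celf6, Hnrnpa3, Hnrnpd, Hnrnph2, Hnrnpr, Hnrnpu, Mbnl3 and Srsf12). For 10 of them no probe was detected on any array, and Hnrnpr and Srsf12 each had a probe detected on 1 array. Snrpe, a ring partner of the well detected Snrpg and Snrpf, and Hnrnpu, a nuclear scaffold protein, each have 1 probe with 0 detections in 6 arrays. A probe below detection gives no value for its gene.

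Other spliceosome genes, outside these name groups, are given beside the members. Of 90 tested genes in a list of 113 (snRNP, Lsm, Prp19-complex, SMN-complex, kinase and RNA-binding genes), 23 fell and 5 rose (25.6% and 5.56%), against 18.2% and 19.9% of all genes, with a median log2 change of -0.31. Isy1, a Prp19-related factor, fell (log2 change -1.16, SE 0.17, limma adjusted p = 0.000355), and Clk2, a kinase that phosphorylates SR proteins, fell (log2 change -1.08, SE 0.17, limma adjusted p = 0.000537). Syncrip, an hnRNP-like protein, fell (log2 change -1.08, SE 0.22, limma adjusted p = 0.00273), and Gemin6, a part of the SMN complex that loads Sm rings, fell (log2 change -1.06, SE 0.21, limma adjusted p = 0.00251). Snrnp70, the U1-70K protein that joins Snrpa in the U1 particle, read 10.05, 9.89 and 9.68 in controls and 8.68, 9.24 and 9.02 with the hairpin. It was lower on every shChd4 array and fell (log2 change -0.90, SE 0.18, limma adjusted p = 0.00307). With the mean of the detected probes the change was -0.47 for Snrnp70 and -0.69 for Syncrip, and both still passed. Zcrb1, a protein of the minor spliceosome, rose (log2 change 0.76, SE 0.15, limma adjusted p = 0.00217), and Rbm5, an RNA-binding splicing regulator, rose as well (log2 change 0.62, SE 0.16, limma adjusted p = 0.0111). Ptbp3, a relative of the splicing repressor Ptbp1, had no detection in controls and rose, at least 1.12-fold (limma adjusted p = 0.00904). It entered the test only through the shChd4 arrays, where it was detected on 3, so its place among the 5 rises is no support for a rise of the list. Slu7, a second-step factor, and Casc3, a part of the exon junction complex, rose by 0.53 and 0.48 on the log2 scale (limma adjusted p = 0.0403 and 0.0477). The Slu7 call did not hold without control replicate 1 or 2, without shChd4 replicate 1, 2 or 3, without background correction, with the authors' processed values, with no detection filter or with an intensity trend and robust moderation (log2 change 0.21 to 0.58, limma adjusted p from 0.0580 to 0.160). The Casc3 call did not hold without control replicate 1 or 2, without shChd4 replicate 1, 2 or 3, with median scaling or with no detection filter (log2 change 0.40 to 0.53, limma adjusted p from 0.0651 to 0.163). The Ptbp3 call did not hold without background correction or with the authors' processed values (log2 change 0.19, limma adjusted p from 0.0768 to 0.0773). The falls in this list numbered 15 without control replicate 1 (16.9%, against 14% of all genes) and 14 without control replicate 2 (15.6%, against 13.1%). The rises numbered 3 and 3 of 89 and 90 tested genes without control replicates 1 and 2, where 16.9% and 16.7% of all genes rose. Without shChd4 replicates 1, 2 and 3 the rises numbered 2, 3 and 2 of 87, 86 and 88, against 15.1%, 16.8% and 15.3%.

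Promoter sequences from RefSeq (GRCm38.p6, 250 bases before to 50 after each annotated start) were found for 63 of the 74 member genes, 25 core and 38 regulator. They were searched on both strands for the same motifs, of which CCGGAAG is the core of many ETS-factor sites, and a gene counted once if any of its starts held the motif. The ETS motif was present in 13 of 25 core genes (52%), in 5 of 38 regulator genes (13.2%) and in 9.93% of all genes with a promoter in the table. The GC box was present in 14 of 25 core genes (56%), 30 of 38 regulator genes (78.9%) and 38.2% of all genes. CCAAT was present in 11 of 25 core genes (44%), 23 of 38 regulator genes (60.5%) and 41.1% of all genes. For CACGTG the shares were 16%, 15.8% and 8.09%, and for TATAAA 8%, 18.4% and 15.7%. A match is a run of letters and not a bound site, and regulators have more starts per gene in the table, 67 for 38 genes against 30 for 25 core genes.

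**Figure D5:**
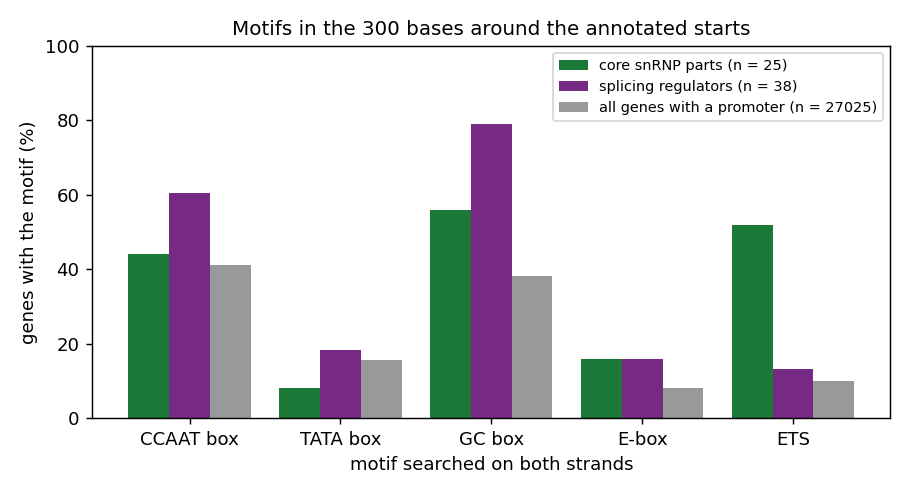
Bars give the share of genes (%) with each motif in at least 1 of their 300-base promoter windows, for core parts (green, n = 25), regulators (purple, n = 38) and all genes in the table (grey, n = 27025). The ETS bar is 52% for core parts and 13.2% for regulators, and the GC box bar is 56% and 78.9%.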

How the data were processed

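RNA from 3 control and 3 shChd4 arrays (Illumina MouseWG-6 BeadChips) was compared. The deposited table holds probe intensity values from GenomeStudio (per the submitters' processing notes, no version given), without normalisation as its name in the series states. Each intensity comes with a detection p-value, per the file headers. The authors' processed intensity values in the series table were used as an alternative. They have nearly equal quantiles on every array, and the steps behind them are not stated in the labels.

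Probes were named through the platform annotation, 34885 with 1 gene symbol, 18 with several and 10378 with none, and 34807 symbols were matched to RefSeq. Intensities were background-corrected with normexp from the detection p-values (offset 16), quantile normalised and taken to log2. A gene was read by the brightest of all its probes. It was tested only if that probe was detected (p-value under 0.05) on at least 3 arrays. limma 3.58.1 in R 4.3.3 compared the groups, with Benjamini-Hochberg adjustment over 9808 genes or 14610 probes and a threshold of 0.05. The 6 arrays limit the precision, and an exact permutation test of 3 against 3 cannot go below p = 0.1. A bound for a gene undetected in 1 group sets the bright group's mean against the dim group's mean of, per array, the higher of the probe's own signal and the lowest signal among detected probes. The probe fit and the test between probes of a gene were run on simulated arrays with known changes, and the other steps were not.

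Members and lists were chosen with earlier results of these data known. Named with all array values were up to 4 rises and 4 falls of each class by adjusted p, every tested Mbnl, Rbfox, Celf and Esrp gene, and genes with a probe that differed from its partners. Up to 5 rises and 5 falls of the other spliceosome list were named too, with array values printed for Snrnp70 only. Promoter windows came from the RefSeq table (GRCm38.p6). Probe coordinates were not used here. Replicate numbers follow the order of the samples and only name arrays.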

Additional observations from a re-analysis of the deposited data

How the results depend on the processing

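Of the 19 called members, 7 kept their call under all 15 alternatives (Snrpa, Prpf4, Prpf40b, Hnrnpf, Mbnl1, Mbnl2 and Esrp1) and 12 lost it in at least 1. Without background correction the median log2 change was -0.22 for the members, -0.29 for core genes, -0.18 for regulators and -0.22 for the other spliceosome genes, and 7 member probes differed from their partners. The authors' processed values gave the same rounded medians of -0.22, -0.29, -0.18 and -0.22 and 7 probes. With median scaling the medians were -0.35 for members, -0.49 for core and -0.37 for the other list, 15 core genes fell, 1 probe differed and Celf4 reversed to 0.049. With no detection filter the medians were -0.26 for members, -0.14 for regulators and -0.26 for the other list, and 8 probes differed. Requiring detection on all 6 arrays, or a detection p under 0.01, left 1 differing probe. The share of all probes that differed was not counted in these alternatives. The counts of 7 and 8 are therefore not read as more differences among the members. Core without Prpf genes had 5 falls among 16 tested genes (31.2%, against 33.3% for all core genes and 18.2% of all genes tested). Leaving out 1 array at a time gave 7 to 14 member falls (11.3% to 23%), with medians from -0.33 to -0.27. Core falls were 4 to 8 (14.8% to 29.6%). Regulator falls were 3 to 6 (8.57% to 17.6%), with medians from -0.25 to -0.20. Member probes that fell numbered 14 to 26, and 0 to 2 probes differed from their partners. In the other list 14 to 23 fell (15.6% to 26.7%) and 2 to 5 rose, with medians from -0.32 to -0.26. Of all genes 13.1% to 18.5% fell and 15.1% to 19.2% rose in these fits, and the share of all probes was not counted. Prpf31 ranged from -0.75 to 0.10 (the latter without control replicate 2), Celf1 from -0.0061 (without shChd4 replicate 1) to 0.28 and Celf4 from -0.25 to 0.0045 (without control replicate 2). Beyond the smaller samples, the cause of these shifts was not tested. No paired analysis was possible because the labels carry no replicate numbers. Probes near background have compressed changes, undetected genes have no value, and chip and hairpin effects share 1 split of the arrays.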

Other observations

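In some genes that did not pass by their brightest probe, a dimmer probe passed in the fit over all probes. These were Hnrnpc, Hnrnpul2, Prpf3, Prpf19, Rbfox2, Snrpd1 and Srsf10, whose dimmer probes fell, and Srsf11, whose dimmer probe rose. They were picked after their values were seen. The Hnrnpul2 probe, for a relative of Hnrnpul1, read 6.68, 6.57 and 6.62 in controls and 4.94, 5.97 and 5.997 with the hairpin and fell by 0.99 (limma adjusted p = 0.00934 over all probes), while the brightest probe of the gene changed by -0.27. The Prpf19 probe read 10.22, 9.95 and 9.90 in controls and 9.28, 9.11 and 9.49 with the hairpin and fell by 0.73 (limma adjusted p = 0.00621 over all probes), against a change of -0.27 on the brightest. For Prpf3 the dimmer probe fell by 0.67 (limma adjusted p = 0.00894 over all probes) and the brightest changed by -0.38. In none of Hnrnpul2, Prpf19 and Prpf3 did the diffSplice test of limma call a difference between probes, with adjusted p of 0.307, 0.2503 and 0.330 for these probes.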
